A study of Mus musculus with 54 samples.

Results

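Transcripts of 9 secreted glycoproteins were followed: the thrombospondins Thbs1 and Thbs2, reelin (Reln), von Willebrand factor (Vwf), vitronectin (Vtn), fibronectin (Fn1), tenascin-C (Tnc), periostin (Postn) and osteonectin (Sparc). They were taken by their gene numbers from the 27 deposited comparisons, and are 9 of the 19641 genes whose reads could be recovered in every library. The 9 genes were chosen with earlier results of these data known, so their shares of calls are not those of genes picked blind to the data. The cells were H2K mouse myogenic progenitors, conditionally immortalised muscle precursors that are grown with interferon and fuse into myotubes when serum is withdrawn. There were 6 lines: wildtype; EMD-/y, which lacks emerin, an inner nuclear membrane protein whose loss or alteration causes a form of Emery-Dreifuss muscular dystrophy; and EMD-/y cells given a lentiviral copy of wildtype emerin (+EMD) or of the disease forms S54F, Δ95–99 and Q133H. Each line was sampled on days 0, 1 and 2 of differentiation (0, 24 and 48 h), which gave 18 groups of 3 labelled replicates and 54 libraries of polyadenylated RNA. All groups were grown on gelatin, with fetal bovine serum before and horse serum during differentiation. In the study the switch also raised the temperature, lowered the carbon dioxide and left out the interferon and chick embryo extract. These changes and the day cannot be told apart between day 0 and the later days. The 4 transduced lines, +EMD among them, were selected in puromycin at doses that differed between lines, and the labels give the drug in the medium of the mutant lines during growth and differentiation, so that a line and its drug cannot be told apart. The 4 transduced lines derive from the same EMD-/y cells, and the study plated them at another density than wildtype and EMD-/y cells.

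Matricellular proteins are secreted into the matrix without being structural fibres, and they change how cells attach, spread, move and respond to growth factors. Thrombospondins, tenascin-C, periostin and osteonectin belong to this class, whereas fibronectin and vitronectin are adhesive proteins that integrins hold, reelin is a large guidance protein best known from the developing brain, and von Willebrand factor tethers platelets and is classically made by endothelial cells and megakaryocytes. In muscle, fibronectin and tenascin-C are parts of the niche of muscle stem cells during regeneration, and periostin is known as a matrix protein of injured and dystrophic muscle.

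Mouse Emd, the targeted gene, had 1145 to 2052 normalized counts in the 9 wildtype libraries and 0 to 2.9 in the 45 others, and the +EMD line was no exception, since the count does not show a lentiviral copy. The libraries held 16496576 to 19619336 reads on genes. They are numbered 1 to 3 within a group by depth, because the tables do not tie a library to a labelled replicate. The labels give 3 technical replicates of each of 2 biological replicates, and in 14 of the 18 groups 2 libraries resembled each other at least 3 times more than either resembled the remaining one. No pair agreed within sampling noise, so none was taken for a repeat deposit of the same library and all 3 were used (n = 3 throughout), which does not make them 3 independent cultures. The p-values measure a spread that is partly technical and are likely too small. Pooled counts of calls of the 9 genes are also given with the closest pair of every group averaged, which leaves 2 values per group. Other counts are from the fit of all 3 libraries unless stated. All 12 myogenic markers had a mean of at least 10 normalized counts in 15 groups and 11 of the 12 did in the 3 Q133H groups. Of 8 endothelial markers at most 2 reached it (summed list 14.8 to 70.2 over all libraries, with Tie1 at 0), of 6 immune markers 1 or 2, of 8 fibroblast markers 2 to 5 and of 7 pericyte markers 3 to 6. The summed list was 68.1 to 5723 for fibroblast and 2124 to 9257 for pericyte markers over all libraries. The part of the pericyte markers in the results was not tested. On day 2 the summed immune list was 71.6 to 153 in Q133H and 21.1 to 32.6 in wildtype, with Cd68 at a mean of 113 in Q133H and Ptprc at most 4.56 in any library. Its part in the Q133H results of that day was not tested. In bulk RNA, fewer cells of a kind and less RNA per cell cannot be told apart.

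The 9 genes lay far apart in level. In wildtype cells on day 0, the mean normalized count per kilobase of transcript was 10203 for Thbs1, 7717 for Sparc and 3836 for Fn1. It was 876 for Tnc, 214 for Thbs2 and 13.9 for Postn on the same scale. Reln (0.754), Vwf (0.733) and Vtn (0.191) were at the low end, with only a few reads per library. Between the lowest and the highest of the 18 group means, Sparc ranged 3.02-fold and Fn1 3.62-fold, Thbs1 12.3-fold and Thbs2 18.9-fold, and Reln 37.2-fold, Tnc 42.3-fold, Postn 42.3-fold and Vwf 46.7-fold. The lowest Vwf group had a mean of 1.17 counts, so its fold is rough and is not ranked against the others. The abundant Sparc and Fn1 had the narrowest ranges of the 8 genes, as the plot of the levels shows.

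**Figure D1:**
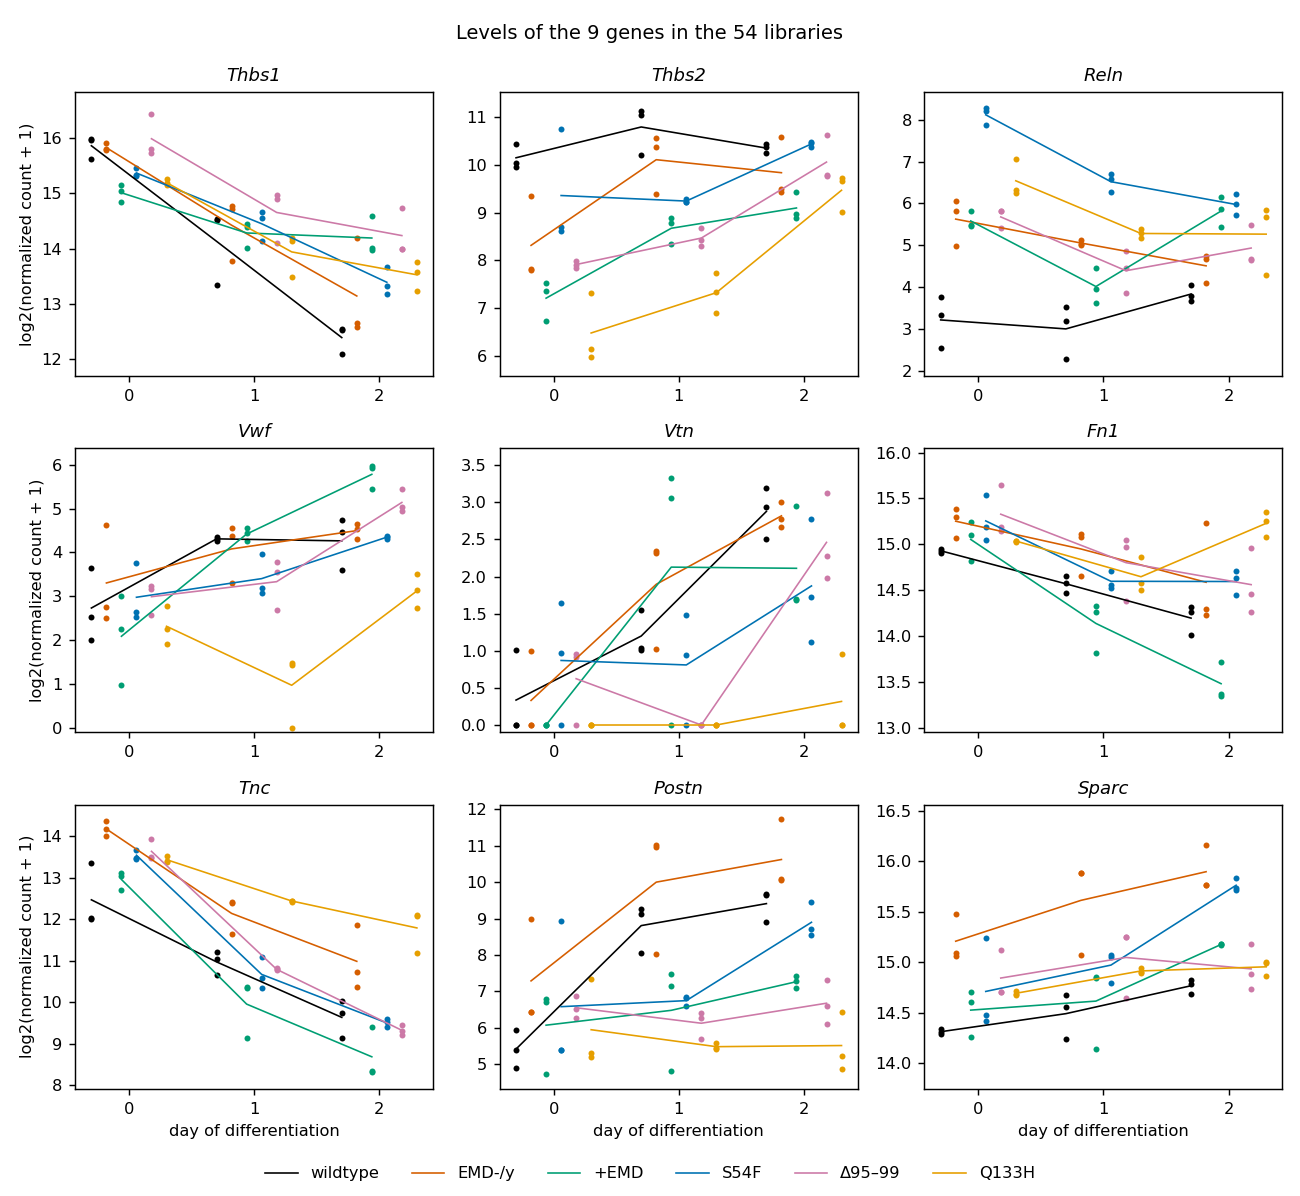
Level of each gene in all 54 libraries as log2(normalized count + 1) against the day of differentiation, with 1 colour per line, points for the 3 libraries of a group and lines through their means on the log2 scale; vertical scales differ between genes and do not start at 0 for the abundant ones. Postn is spread most widely between libraries of the same group, Tnc and Thbs1 are lower on later days in every line, and Reln in wildtype cells lies below every other line.

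Against wildtype on the same day, 26 of the 116 tests of these genes (22.4%) gave a higher level and 19 (16.4%) a lower one, where a call needed an adjusted p below 0.05 and a change of at least 2-fold. Over all genes in the same 15 comparisons, 7.47% of tests were called higher and 7.76% lower. With the closest pair averaged, 17 calls were higher and 16 lower, against 5.53% and 5.93% of tests over all genes. The median log2 difference of the 116 tests was 0.33, while the median over all genes lay between -0.01 and 0.00 in the 15 comparisons. The comparisons of a day share the 3 wildtype libraries, so their calls are not independent of each other.

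The share of members called is read against the share of all genes called in the same comparison. In EMD-/y, 3 of 8 tested members were called on day 0 (6.4% of all genes), 3 of 8 on day 1 (5.7%) and 1 of 8 on day 2 (7.08%). In +EMD, 2 of 7 were called on day 0 (15.9% of all genes), 3 of 8 on day 1 (19.2%) and 5 of 8 on day 2 (18.3%). In S54F, 1 of 7, 3 of 8 and 1 of 8 were called on the 3 days, beside 10.1%, 11.8% and 10.8% of all genes. In Δ95–99 the counts were 4 of 7, 3 of 8 and 3 of 8, beside 11.2%, 20.4% and 22.2%. In Q133H they were 2 of 7, 5 of 8 and 6 of 8, beside 12.9%, 23.5% and 32.5%. Reln, Thbs2, Postn and Tnc held 36 of these 45 calls. With the pair averaged, 1 of the 7 EMD-/y calls was left, that of Sparc on day 2.

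**Figure D2:**
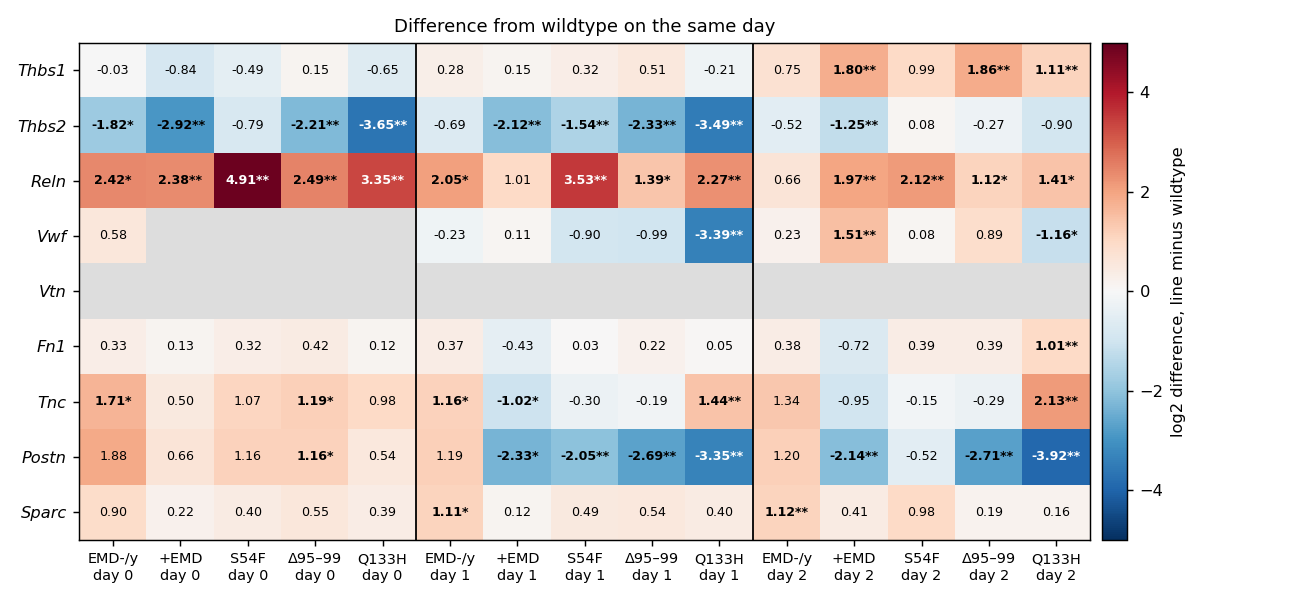
Log2 difference of each gene between a line and wildtype on the same day (colour and number, line minus wildtype), for 5 lines on 3 days. A star marks a call (adjusted p below 0.05 and at least 2-fold), 2 stars a call also made with the closest pair of each group averaged, and grey a gene below a mean of 10 normalized counts in both groups; Reln is positive in all 15 columns and Thbs2 negative in 14.

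Between consecutive days of a line, 12 of 93 tests (12.9%) rose and 21 (22.6%) fell, beside 8.78% rising and 8.1% falling over all genes. With the closest pair averaged the counts were 9 and 17, beside 7.04% and 6.17%. From day 0 to 1 the calls were 4 of 7 in wildtype (22.4% of all genes), 3 of 8 in EMD-/y (20.5%), 4 of 8 in +EMD (17.1%), 2 of 8 in S54F (15.9%), 3 of 8 in Δ95–99 (13.8%) and 2 of 7 in Q133H (10%). From day 1 to 2 they were 2 of 8 in wildtype (19.9%), 2 of 8 in EMD-/y (18.5%), 3 of 8 in +EMD (20.8%), 4 of 8 in S54F (20.8%), 3 of 8 in Δ95–99 (14.2%) and 1 of 7 in Q133H (8.25%). Tnc and Thbs1 held 17 of the 21 falls.

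**Figure D3:**
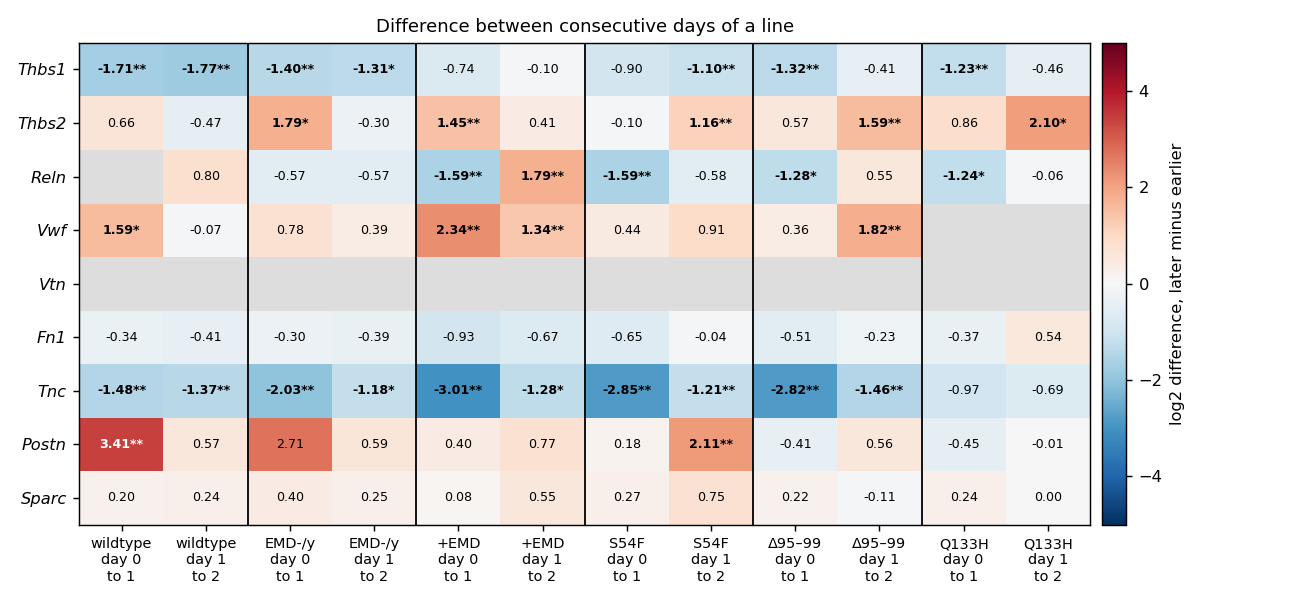
Log2 difference of each gene between consecutive days of a line (colour and number, later minus earlier), for 6 lines. Stars and grey are as in the plot of differences from wildtype; Tnc is negative in all 12 columns and is called in 10, Postn rises in wildtype from day 0 to 1 and in S54F from day 1 to 2.

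Thrombospondin-1 is a trimeric glycoprotein that binds CD36 and CD47 and can activate latent TGF-β. Its gene lies at chr2:118111876-118127133 on the plus strand (GRCm38.p6) and shares exon positions with Gm29233 on the other strand, whose reads could not be told apart without strand-specific counting. In wildtype cells Thbs1 had 64195, 64763 and 50504 normalized counts on day 0, 10357, 23794 and 23431 on day 1, and 5918, 4380 and 5971 on day 2. It fell by 1.71 on the log2 scale from day 0 to 1 (SE 0.31, adjusted p = 0.00339) and fell by 1.77 from day 1 to 2 (SE 0.31, adjusted p = 0.00211), and no library of one day reached the range of another. In +EMD the day 2 libraries held 16526, 16001 and 24738 counts, in Δ95–99 27098, 16275 and 16254, and in Q133H 9646, 13842 and 12284. All 9 of these lay above the 3 wildtype libraries of day 2.

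On day 2 Thbs1 was 3.48-fold higher than in wildtype in +EMD (log2 difference 1.80, SE 0.19, adjusted p = 1.43e-04), 3.64-fold in Δ95–99 (1.86, SE 0.21, adjusted p = 2.08e-04) and 2.16-fold in Q133H (1.11, SE 0.18, adjusted p = 0.00203). No comparison of day 0 or day 1 was called. On day 0 Thbs1 was lower than wildtype, short of the fold limit, in +EMD (log2 difference -0.84, adjusted p = 0.00228), Q133H (-0.65, 0.0055) and S54F (-0.49, 0.0273). In EMD-/y and Δ95–99 the adjusted p on day 0 was 0.897 and 0.622. With the pair averaged the day 0 values were 0.0296 in +EMD, 0.0854 in Q133H and 0.275 in S54F. The level in S54F on day 2 missed the fold limit (log2 difference 0.99, adjusted p = 0.0022) and was called with the pair averaged (1.01, adjusted p = 0.0185). All 3 calls were also made with the pair averaged, and that of Q133H was lost without wildtype library 2, when the log2 difference was 0.95. Of the 12 steps between days 7 fell, 5 of them under every alternative that left out a library. The step from day 1 to 2 in EMD-/y was lost without any one of 4 libraries (libraries 2 and 3 of day 1, 1 and 3 of day 2; adjusted p up to 0.148), and that in S54F came under the fold limit without library 1 of either day. With the pair averaged 6 of the 7 falls were called again, and that of EMD-/y from day 1 to 2 was not (adjusted p = 0.276). S54F from day 0 to 1, not called in the main fit, was called there (adjusted p = 0.0197). From day 1 to 2 Thbs1 was not called in +EMD (log2 -0.10, adjusted p = 0.629) or Δ95–99 (-0.41, adjusted p = 0.243). Libraries of the 2 days overlapped in both lines.

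The myogenic differentiation markers Myog, Mymk, Myh3, Acta1, Ckm and Tnnt1 moved between these groups too. Their summed normalized count on day 2 was 647080 to 801655 in wildtype, 561298 to 790986 in EMD-/y, 548463 to 658354 in S54F, 402153 to 465985 in +EMD, 251418 to 333593 in Δ95–99 and 33140 to 202794 in Q133H. The 3 lines in which Thbs1 was called higher on day 2 had the 3 lowest sums. The part of these markers in the result was not tested.

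Thrombospondin-2 is the close relative of thrombospondin-1 and is known from collagen fibril assembly and the restraint of vessel growth. The gene lies at chr17:14665500-14694262 on the minus strand. Its wildtype libraries held 1047, 996 and 1389 normalized counts on day 0, 1182, 2093 and 2233 on day 1, and 1217, 1319 and 1373 on day 2. Q133H held 62.5, 69.9 and 159 on day 0, 214, 161 and 118 on day 1, and 516, 841 and 813 on day 2. Every Q133H library was below every wildtype library on all 3 days, with the widest gap on days 0 and 1.

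Thbs2 was called lower in 9 of the 15 comparisons with wildtype and higher in none (limma; 8 of these 9 also with the pair averaged). On day 0 it was 12.5-fold lower in Q133H (log2 difference -3.65, SE 0.35, adjusted p = 6.32e-04), 7.57-fold in +EMD (-2.92, SE 0.23, adjusted p = 1.19e-04) and 4.63-fold in Δ95–99 (-2.21, SE 0.13, adjusted p = 6.99e-05). On day 1 it was 11.2-fold lower in Q133H, 5.04-fold in Δ95–99, 4.34-fold in +EMD and 2.91-fold in S54F, with adjusted p from 1.04e-04 to 0.00182. On day 2 the only call was in +EMD, 2.38-fold lower (log2 difference -1.25, SE 0.14, adjusted p = 2.08e-04), and Q133H, which missed the fold limit (-0.90, adjusted p = 0.00526), was called with the pair averaged (-1.01, adjusted p = 0.0349). EMD-/y was called on day 0 (log2 difference -1.82, SE 0.42, adjusted p = 0.0329), where its libraries held 224, 221 and 647 counts. That call was not made with the pair averaged (adjusted p = 0.256), and was lost without any one of EMD-/y libraries 1 and 2 or wildtype libraries 1, 2 and 3 (adjusted p up to 0.111). S54F on day 0 held 394, 414 and 1719 counts, and its range took in the wildtype one.

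Thbs2 rose in 5 of the 12 steps between days, in lines other than wildtype, and 3 of these rises were also called with the pair averaged. From day 1 to 2 it rose 3.02-fold in Δ95–99 (log2 1.59, SE 0.23, adjusted p = 9.38e-04), 2.23-fold in S54F (1.16, SE 0.06, adjusted p = 8.49e-07) and 4.28-fold in Q133H (2.10, SE 0.26, adjusted p = 0.0102). In wildtype the same step was -0.47. The difference of the steps from wildtype passed the test in all 3, at 2.03 in Δ95–99, 1.62 in S54F and 2.55 in Q133H. With the pair averaged, the difference passed in Δ95–99 alone (adjusted p = 0.0456) and was at adjusted p = 0.0973 in S54F and 0.0677 in Q133H. The rise in Q133H was lost without library 2 or 3 of day 1 (adjusted p up to 0.0743). It was not called with the pair averaged (adjusted p = 0.167), where 0 of all genes were called in that step. From day 0 to 1 Thbs2 rose 2.73-fold in +EMD (log2 1.45, SE 0.23, adjusted p = 0.00128). The rise in EMD-/y (1.79, SE 0.49, adjusted p = 0.0203) was lost without any one of libraries 1 and 2 of day 0 or 2 and 3 of day 1 (adjusted p up to 0.0722). With the pair averaged that rise was not called either (adjusted p = 0.17).

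CD36, a scavenger receptor that binds thrombospondins, was lower in +EMD, Δ95–99 and Q133H. Cd36 had 254, 246 and 206 normalized counts in wildtype on day 2. It had 83.1, 87.7 and 70.2 in +EMD, 13.4, 22.2 and 18.7 in Δ95–99 and 22.6, 6.55 and 7.5 in Q133H. It was called lower in 8 of 15 comparisons, all 8 also with the pair averaged, among them Q133H on day 1 at a log2 difference of -6.14 (SE 0.47, adjusted p = 6.72e-05), where it had a single normalized count of 0.89 in 1 library and 0 in 2. CD47, the other classical receptor, was called in none of 15. Its level ranged from 521 to 1444 over the 18 groups.

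Reelin binds the lipoprotein receptors VLDLR and ApoER2, the product of Lrp8, which pass the signal to the adaptor Dab1. The gene lies at chr5:21884454-22344705 on the minus strand and shares exon positions with Gm10475 on the other strand. Wildtype libraries held 4.8, 12.6 and 9.08 normalized counts of Reln on day 0, 3.83, 8.17 and 10.5 on day 1, and 15.6, 11.6 and 12.8 on day 2. S54F held 308, 297 and 232 on day 0, 94.2, 104 and 76.1 on day 1, and 73.5, 51.7 and 62.1 on day 2. In all 15 comparisons every library of the line was above every wildtype library of its day, though outside S54F no library held more than 132 normalized counts. The ranges were also apart in 11 of 15 comparisons for Sparc and 8 of 15 for Fn1, and the share over all genes was not computed.

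Reln was called higher in 13 of the 15 comparisons and lower in none (limma), and 8 of the 13 were also made with the pair averaged. In S54F it was 30-fold higher on day 0 (log2 difference 4.91, SE 0.33, adjusted p = 2.15e-04), 11.6-fold on day 1 (3.53, SE 0.35, adjusted p = 4.13e-04) and 4.34-fold on day 2 (2.12, SE 0.25, adjusted p = 5.72e-04). On day 0 the other lines were 5.21-fold (+EMD), 5.36-fold (EMD-/y), 5.62-fold (Δ95–99) and 10.2-fold (Q133H) higher, with adjusted p from 0.00133 to 0.0144. On day 1 it was 4.82-fold higher in Q133H (adjusted p = 0.00186), 4.14-fold in EMD-/y (0.0163) and 2.62-fold in Δ95–99 (0.0323). On day 2 it was 3.93-fold higher in +EMD (adjusted p = 5.81e-04), 2.65-fold in Q133H (0.0275) and 2.17-fold in Δ95–99 (0.0176). The comparisons that missed were +EMD on day 1 (log2 difference 1.01, adjusted p = 0.0804) and EMD-/y on day 2 (0.66, adjusted p = 0.174).

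Of the 13 calls 8 held whichever library was left out. Those of EMD-/y were lost on day 0 without its library 1 or 2 (adjusted p up to 0.0685) and on day 1 without its library 2 or 3 or wildtype library 2 (up to 0.0752). Those of Δ95–99 were lost on day 1 without its library 1 or 3 or wildtype library 1 or 2 (up to 0.0937) and on day 2 without its library 2 (0.0685). That of Q133H on day 2 was lost without any library but its library 1 (up to 0.0896). Over days, Reln fell from day 0 to 1 in +EMD and S54F (log2 -1.59 in both, SE 0.29 and 0.16, adjusted p = 0.00261 and 3.15e-04), in Δ95–99 (-1.28, SE 0.30, adjusted p = 0.0108) and in Q133H (-1.24, SE 0.25, adjusted p = 0.00961). The last of these came under the fold limit without library 3 of day 0, at a log2 difference of -0.98, and neither it nor that of Δ95–99 was called with the pair averaged. Reln rose again in +EMD from day 1 to 2 (1.79, SE 0.31, adjusted p = 0.00148). None of the 10 tests of a difference in step from wildtype passed (limma; 4 had an unadjusted p below 0.05, and 0 passed with voom weights).

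Both reelin receptors were higher in most lines, and the adaptor was hardly detected. Vldlr had 81.1, 64 and 85 normalized counts in wildtype on day 2, and 153 to 293 in the 15 libraries of the other lines. Its log2 difference from wildtype on day 2 was 1.62 in EMD-/y (SE 0.14, adjusted p = 3.41e-04), 1.39 in +EMD, 1.66 in S54F, 1.55 in Δ95–99 and 1.66 in Q133H. Over the 3 days Vldlr was called higher in 11 of 15 comparisons (7 with the pair averaged) and Lrp8 in 9 of 15 (8 with the pair averaged), and neither was called lower in any (limma). Lrp8 on day 2 had 45.5, 30.3 and 48.9 counts in wildtype and 146 to 173 in +EMD, a log2 difference of 1.92 (SE 0.21, adjusted p = 1.68e-04). In wildtype Lrp8 fell at both steps, by 1.89 and 1.59 on the log2 scale (adjusted p = 0.00334 and 0.00505). Dab1 had 0 counts in 53 libraries and 0.984 in 1.

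**Figure D4:**
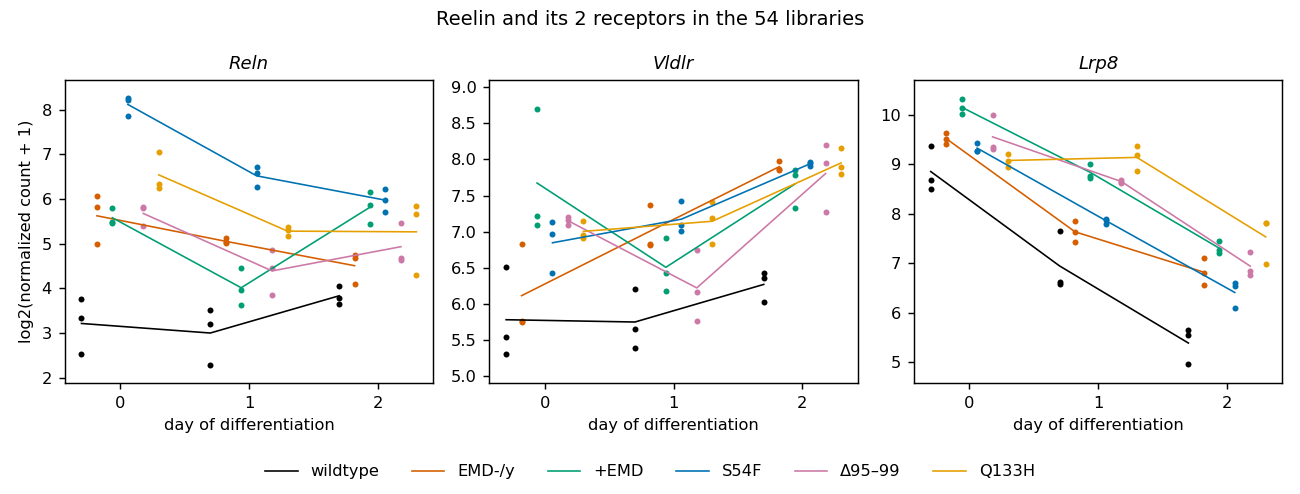
Level of Reln and its receptors Vldlr and Lrp8 in all 54 libraries as log2(normalized count + 1) against the day of differentiation, with points for libraries and lines through the group means on the log2 scale. On day 2 the wildtype libraries of Vldlr (64 to 85) lie below all 15 libraries of the other lines (153 to 293), and Lrp8 is lower on later days in wildtype.

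Periostin is a fasciclin-domain protein that links integrins to collagen. The gene lies at chr3:54359267-54391041 on the plus strand. Wildtype libraries had 41.2, 29 and 60.5 normalized counts on day 0, 263, 553 and 613 on day 1, and 795, 482 and 819 on day 2. Postn rose 10.6-fold in wildtype from day 0 to 1 (log2 3.41, SE 0.38, adjusted p = 4.13e-04). In Δ95–99 the libraries held 76, 90.5 and 116 counts on day 0, 51.2, 83.6 and 76.1 on day 1, and 159, 67.6 and 96.4 on day 2. In Q133H they held 35.8, 38.7 and 160, then 42.5, 47.2 and 41.6, then 86.3, 36.5 and 28.1. The wildtype libraries of days 1 and 2 were above all of these.

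On day 1 Postn was 10.2-fold lower than wildtype in Q133H (log2 difference -3.35, SE 0.31, adjusted p = 1.54e-04), 6.47-fold in Δ95–99 (-2.69, SE 0.34, adjusted p = 6.72e-04), 5.02-fold in +EMD (-2.33, SE 0.70, adjusted p = 0.0242) and 4.15-fold in S54F (-2.05, SE 0.30, adjusted p = 0.00196). On day 2 it was 15.1-fold lower in Q133H (-3.92, SE 0.45, adjusted p = 6.15e-04), 6.56-fold in Δ95–99 (-2.71, SE 0.33, adjusted p = 2.64e-04) and 4.42-fold in +EMD (-2.14, SE 0.20, adjusted p = 9.20e-05). In S54F on day 2 the ranges overlapped, after a rise of 4.32-fold from day 1 (log2 2.11, SE 0.22, adjusted p = 4.92e-05). The step from day 0 to 1 differed from that of wildtype in Δ95–99 (-3.84, SE 0.49, adjusted p = 2.91e-04), in Q133H (-3.88, SE 0.74, adjusted p = 0.00218) and in +EMD (-3.00, SE 1.00, adjusted p = 0.0465). The first 2 passed with the pair averaged as well (adjusted p = 0.0248 and 0.0491).

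The +EMD results rest on uneven libraries. Its Postn counts were 103, 110 and 25.4 on day 0 and 140, 178 and 27.2 on day 1, with library 3 below the others on both days. The call on day 1 was not made with the pair averaged (adjusted p = 0.0752) and was lost without wildtype library 2 or 3 (up to 0.0758), and the difference of its step was lost with any one of 8 of the 12 libraries left out (up to 0.106). The 1 higher call, in Δ95–99 on day 0 (log2 difference 1.16, adjusted p = 0.0263), was lost without its library 2 or 3 or wildtype library 1 or 2 (up to 0.0789). The level in EMD-/y was uneven too, at 84.7, 86.1 and 511 on day 0, 258, 2013 and 2057 on day 1, and 1087, 3391 and 1059 on day 2. None of these 3 comparisons with wildtype was called (log2 differences 1.88, 1.19 and 1.20, adjusted p = 0.132, 0.397 and 0.104). The summed differentiation markers on day 1 were 155010 to 225177 in wildtype, 66124 to 77466 in +EMD, 17893 to 27484 in Δ95–99 and 6980 to 9281 in Q133H, and their part in the Postn values was not tested. The fibroblast markers Lum and Dcn had at most 1.88 and 69.4 counts in any library, and the summed fibroblast list, most of it Ly6a, was on day 1 68.1 to 1265 in wildtype, 192 to 1001 in EMD-/y, 236 to 471 in +EMD, 705 to 1533 in S54F, 966 to 1264 in Δ95–99 and 244 to 626 in Q133H. The part of these markers was not tested either.

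Tenascin-C is a hexameric glycoprotein that weakens adhesion to fibronectin. Its gene lies at chr4:63959785-64047015 on the minus strand and shares exon positions with 8030451A03Rik on the other strand. In wildtype Tnc had 4105, 4220 and 10527 normalized counts on day 0, 1616, 2367 and 2129 on day 1, and 860, 561 and 1047 on day 2. Δ95–99 held 11336, 11600 and 15710, then 1749, 1774 and 1808, then 696, 596 and 637. Q133H held 11782, 10617 and 10902, then 5591, 5494 and 5598, then 2332, 4402 and 4347. The days did not overlap in any of these 3 lines.

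Tnc fell in 10 of the 12 steps, 8 of them also with the pair averaged. From day 0 to 1 the fall was 8.06-fold in +EMD (log2 -3.01, SE 0.31, adjusted p = 1.84e-04), 7.23-fold in S54F (-2.85, SE 0.18, adjusted p = 4.79e-05), 7.08-fold in Δ95–99 (-2.82, SE 0.12, adjusted p = 1.03e-05), 4.09-fold in EMD-/y (-2.03, SE 0.21, adjusted p = 4.98e-04) and 2.79-fold in wildtype (-1.48, SE 0.36, adjusted p = 0.0116). In Q133H the change missed the fold limit (-0.97, SE 0.06, adjusted p = 1.78e-04). From day 1 to 2 Tnc fell 2.27-fold to 2.75-fold in the 5 lines other than Q133H. The fall of EMD-/y in that step was lost without library 2 or 3 of day 1 or 1 or 3 of day 2 (adjusted p up to 0.116). The fall of +EMD was lost without library 1 or 2 of either day (up to 0.0782), and that of S54F came to the fold limit without library 2 of day 1.

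Q133H had more Tnc than wildtype on days 1 and 2. It was 2.72-fold higher on day 1 (log2 difference 1.44, SE 0.13, adjusted p = 1.53e-04) and 4.38-fold on day 2 (2.13, SE 0.32, adjusted p = 0.00159), and both calls were made with the pair averaged. EMD-/y was called higher on day 0 (3.28-fold, adjusted p = 0.0238) and day 1 (2.24-fold, adjusted p = 0.0233), Δ95–99 higher on day 0 (2.28-fold, adjusted p = 0.0442) and +EMD lower on day 1 (2.03-fold, adjusted p = 0.0323). None of these 4 was called with the pair averaged, and each was lost with any one of 3 to 5 of the 6 libraries left out (adjusted p up to 0.0897, 0.0906, 0.136 and 0.098). On day 0 wildtype library 3, at 10527, was above the range of the other wildtype libraries. The tested difference in step from wildtype passed for Δ95–99 from day 0 to 1 (-1.37, SE 0.42, adjusted p = 0.0301), not with the pair averaged (adjusted p = 0.262).

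Fibronectin is the adhesive protein that integrin α5β1 assembles into fibrils. Its gene lies at chr1:71585473-71653280 on the minus strand and shares exon positions with Apol7d on the other strand. Fn1 had 20441, 16454 and 19567 normalized counts in wildtype on day 2 and 34612, 41887 and 38992 in Q133H, which did not overlap. That was its single call, 2.02-fold higher (log2 difference 1.01, SE 0.14, adjusted p = 0.00121). It is at the fold limit, and without Q133H library 2 or wildtype library 2 the difference was 0.96 or 0.90. In +EMD on day 2 Fn1 had 10419, 10596 and 13469 counts, all below wildtype (log2 difference -0.72, SE 0.12, adjusted p = 0.00148), short of the fold limit. None of the 12 steps between days was called, although 7 had an adjusted p below 0.05 (limma; 0 called with voom weights). From day 1 to 2 the step of Q133H (0.54) differed from that of wildtype (-0.41) by 0.93 (SE 0.17, adjusted p = 0.00232), and not with the pair averaged (adjusted p = 0.0935).

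Of the integrin subunits that hold fibronectin and vitronectin, Itga5, Itgb1, Itgav and Itgb5 were called in none of their 15 comparisons with wildtype. Itgb3 was higher in 2 and lower in 1, Itga4 lower in 6 and Itgb6 lower in 3 of 15. Itga8 was higher in 7 of the 8 comparisons in which it could be tested and lower in none. With the pair averaged it was higher in 2, and its group means were 1.28 to 52.8. For Itga5, Itgb1, Itgav, Itgb5 and Cd47 together, 31 of 75 tests had an adjusted p below 0.05 without reaching 2-fold (limma; 38 had an unadjusted p below 0.05, and 0 were called with voom weights). Itgb1 ranged from 14782 to 31284 normalized counts over the 18 group means.

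Osteonectin, the product of Sparc, binds collagen and calcium and loosens cells from their matrix. Its gene lies at chr11:55394159-55420080 on the minus strand. Sparc had 28336, 26342 and 29111 normalized counts in wildtype on day 2 and 55857, 73269 and 55531 in EMD-/y, with no overlap. It was 2.18-fold higher there (log2 difference 1.12, SE 0.12, adjusted p = 9.85e-04), which was called with the pair averaged (1.21, adjusted p = 0.031) and came to 0.98 without EMD-/y library 2. On day 1 EMD-/y held 34511, 60482 and 60349 counts against 19353, 24145 and 26177 (log2 difference 1.11, SE 0.24, adjusted p = 0.0276). That call was not made with the pair averaged (adjusted p = 0.23) and was lost without any library but EMD-/y library 1 (up to 0.104). S54F on day 2, with 54658, 58574 and 53738 counts, missed the fold limit (0.98, SE 0.07, adjusted p = 4.38e-05). Sparc was called in none of the 12 steps between days (limma; 3 had an adjusted and an unadjusted p below 0.05, and 0 were called with voom weights). Its log2 difference from wildtype was above 0 in all 15 comparisons.

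Von Willebrand factor was near the detection limit of these libraries. The gene lies at chr6:125552948-125686679 on the plus strand. Vwf had 4.8, 11.6 and 3.03 normalized counts in wildtype on day 0, 18.2, 19.4 and 18.9 on day 1, and 11.1, 21 and 25.6 on day 2. Q133H had 1.7, 0 and 1.81 on day 1, and +EMD had 59.8, 61.9 and 42.3 on day 2. These were the lowest and the highest groups of the 18. Vwf was 10.5-fold lower in Q133H on day 1 (fitted log2 difference -3.39, SE 0.51, adjusted p = 0.00139) and 2.85-fold higher in +EMD on day 2 (1.51, SE 0.34, adjusted p = 0.00624), both also with the pair averaged. With 1 added to each count before the logarithm, a fold of so few reads is a rough value. The lower call in Q133H on day 2 (-1.16, adjusted p = 0.0424) was lost without any library but wildtype library 1 (up to 0.128). Vwf rose 5.05-fold in +EMD from day 0 to 1 (log2 2.34, SE 0.57, adjusted p = 0.0101) and 2.54-fold from day 1 to 2 (1.34, SE 0.24, adjusted p = 0.00165), and 3.53-fold in Δ95–99 from day 1 to 2 (1.82, SE 0.37, adjusted p = 0.00473). In wildtype the rise from day 0 to 1 (1.59, adjusted p = 0.0236) was lost without library 1 of day 0 or library 2 or 3 of day 1 (up to 0.0679). The endothelial markers were at levels like those of Vwf or below. Tie1 was at 0, and the highest library held 0.945 counts of Emcn, 6.65 of Cldn5, 8.2 of Esam, 13.4 of Cdh5, 17.2 of Pecam1, 35.7 of Tek and 49.9 of Kdr. Cdh5 had its highest group mean, 11.5, in +EMD on day 2, where Vwf was highest too. Kdr had its highest, 26.3, in Q133H on day 1, where Vwf was lowest. Tek was highest in wildtype on day 1 (30.2) and Pecam1 in +EMD on day 0 (12.8). Cldn5, Emcn and Esam were also highest in groups other than +EMD on day 2. The summed endothelial list was 24.4 to 36.8 in that group and 21.1 to 27.9 in wildtype on day 2. On day 1 it was 44.2 to 59.7 in Q133H and 43.1 to 56.1 in wildtype. The part of these cells in the Vwf values was not tested. Gp1ba, the platelet receptor of von Willebrand factor, had group means of 3.24 to 16.5.

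Vitronectin is a plasma protein that binds integrin αvβ3 and the urokinase receptor, and is made mainly by the liver. The gene lies at chr11:78499120-78502325 on the plus strand. Vtn had 0 to 8.15 normalized counts in wildtype, with 6.66, 8.15 and 4.66 on day 2, and no group reached the mean of 10 needed for a test. Q133H had 1 library above 0, at 0.936, among its 9. In +EMD on day 1 Vtn had 9.05, 7.29 and 0 counts. No difference in Vtn could be tested at this depth.

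Whether a line changed differently from wildtype between days was tested for 8 of the 9 genes. Of 80 such tests 18 passed (22.5%), close to the 22.9% of all genes over the same 10 contrasts, and 3 passed with the pair averaged, beside 3.99% of all genes. In EMD-/y none of 8 passed at either step, beside 0.187% and 0.473% of all genes (limma; 0 and 1 had an unadjusted p below 0.05, and 0 passed with voom weights). In +EMD 2 passed from day 0 to 1 (25.6% of all genes) and 2 from day 1 to 2 (31.1%). In S54F none passed from day 0 to 1 (17.6% of all genes; 3 had an unadjusted p below 0.05, and 0 passed with voom weights) and 3 from day 1 to 2 (12.4%). In Δ95–99 2 and 3 passed at the 2 steps, beside 30.4% and 34.7%. In Q133H 2 and 4 passed, beside 39.7% and 36.7%.

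Libraries of the same group differed in these genes more than the median gene did. The standard deviation within groups on the log2 scale was 0.99 for Postn, larger than for 96.6% of the 14651 genes that reached a mean of 10 in some group. It was 0.59 for Vwf, 0.52 for Thbs2, 0.43 for Reln, 0.42 for Tnc, 0.40 for Thbs1, 0.25 for Fn1 and 0.24 for Sparc, against a median of 0.19 over those genes. The library with the most Postn in its group was also the one with the most Sparc in 12 of the 18 groups. For Thbs2 and Fn1 that was so in 14 groups, and for Thbs1 and Tnc in 11. These were among the highest counts, and other pairs went down to 4 groups, as for Reln and Postn. The count for pairs of other genes was not computed.

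RefSeq start sites were listed for 6 of the 9 genes (Thbs2, Reln, Vtn, Tnc, Postn and Sparc), and not for Thbs1, Vwf and Fn1. The 250 bases before the start are shown for the 4 genes with most of the calls against wildtype, 5′ to 3′ on the strand of the gene and in GRCm38.p6. Capitals mark the letters TATAAA read on either strand. For Postn and Tnc, which have 2 listed starts each, the one with a GENCODE start within 50 bases is given.
Postn, chr3:54360857-54361106, plus strand: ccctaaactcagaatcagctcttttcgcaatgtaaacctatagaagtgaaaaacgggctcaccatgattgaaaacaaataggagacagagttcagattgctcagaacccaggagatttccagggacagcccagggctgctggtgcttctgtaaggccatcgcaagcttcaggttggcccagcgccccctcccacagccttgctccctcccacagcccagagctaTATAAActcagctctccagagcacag
Thbs2, chr17:14694263-14694512, minus strand: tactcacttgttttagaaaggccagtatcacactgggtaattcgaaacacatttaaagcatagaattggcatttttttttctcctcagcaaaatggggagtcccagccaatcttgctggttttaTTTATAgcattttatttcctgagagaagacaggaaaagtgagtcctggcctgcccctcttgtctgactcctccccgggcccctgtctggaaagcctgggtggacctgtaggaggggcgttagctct
Reln, chr5:22344706-22344955, minus strand: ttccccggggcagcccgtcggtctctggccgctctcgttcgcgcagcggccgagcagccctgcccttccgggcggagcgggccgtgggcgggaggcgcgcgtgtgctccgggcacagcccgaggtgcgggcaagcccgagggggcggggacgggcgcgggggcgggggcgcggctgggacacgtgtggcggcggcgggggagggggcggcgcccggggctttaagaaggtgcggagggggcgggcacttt
Tnc, chr4:64047016-64047265, minus strand: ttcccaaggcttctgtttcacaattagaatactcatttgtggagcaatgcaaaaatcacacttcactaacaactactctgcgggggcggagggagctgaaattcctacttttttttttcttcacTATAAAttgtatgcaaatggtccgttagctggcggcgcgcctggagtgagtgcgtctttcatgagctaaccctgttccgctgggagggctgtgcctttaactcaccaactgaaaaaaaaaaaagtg

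TATAAA began 26 bases before the start of Postn, and 126 before those of Thbs2 and Tnc, and was not among these letters in Reln. It occurs on either strand in 12.4% of 32851 windows of this length. GGAATG, the core letters of TEAD sites, and TGANTCA, those of AP-1 sites, were in none of the 4 windows and in 12.6% and 6.75% of all. CANNTG, the E-box that myogenic factors bind, was in the windows of Thbs2, Reln and Tnc and in 66.2% of all. A match describes the letters only.

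Other secreted proteins of these families fell more often with differentiation than rose. Of 22 relatives, 19 could be tested, with 12 rises and 67 falls in 199 tests between days (6.03% and 33.7%, beside 8.78% and 8.1% over all genes) and a median log2 change of -0.67, where the median of all genes lay between -0.01 and 0.01. Against wildtype, 45 of 250 tests were higher and 37 lower (18% and 14.8%, beside 7.47% and 7.76% over all genes), with a median of 0.00. With the closest pair averaged, 30 were higher and 21 lower against wildtype, with 9 rises and 53 falls between days. Thbs3 fell in all 12 steps, from a mean of 727 normalized counts in wildtype on day 0 to 188 and 44.9. Spp1, osteopontin, fell in wildtype from 114347 to 15943 and 5673, and Fstl1 from 23414 to 7456 and 3391. Ccn4, a matricellular Wnt target, rose from 2093 to 4623 in wildtype and fell again to 1784. Spock2, a testican of the osteonectin family, was higher than wildtype in 10 comparisons and lower in 2, both in Q133H, where the log2 difference was -1.72 on day 1 (SE 0.25, adjusted p = 0.00105) and -3.05 on day 2 (SE 0.28, adjusted p = 2.99e-04).

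Of 22 receptors and adaptors 21 could be tested. They were higher in 42 of 295 tests against wildtype (14.2%) and lower in 21 (7.12%), beside 7.47% and 7.76% over all genes, with a median log2 difference of 0.16. Between days they rose in 22 of 239 tests (9.21%) and fell in 40 (16.7%), beside 8.78% and 8.1%, with a median of -0.28. The lower and the rising share were near those of all genes. With the closest pair averaged, 31 tests were higher and 18 lower against wildtype, with 15 rises and 32 falls between days. In wildtype, Itgb3 fell from 370 to 155 and 63.8 normalized counts and Sdc4, a co-receptor for fibronectin, from 4434 to 1848 and 872. Itga9, a subunit of the tenascin receptor α9β1, fell from 52.1 to 23.4 and then rose to 182. Of the 12 proteases, inhibitors and partners 11 could be tested, with 12 higher and 13 lower of 165 tests (7.27% and 7.88%) and 10 rises and 11 falls in 132 between days, close to the shares of all genes (medians -0.12 and -0.08).

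The genes whose log2 group means over the 18 groups ran most nearly parallel to a member were found by Pearson's r, given as a description, since the groups share lines, days and libraries. They were Zyx (r = 0.936) and Crybg1 (0.927) for Thbs1, Cox6b2 (0.880) and Efemp1 (0.859) for Thbs2, and Trmt9b (0.90) and Adra2a (0.829) for Reln. For Vwf they were Cemip (0.928) and Itgb6 (0.921), for Fn1 Cebpb (0.923) and Ppp1r9b (0.915), and for Tnc Nid1 (0.957) and Bcl2 (0.947). For Sparc they were Atp5e (0.868) and Psen2 (0.860). Cd3g (0.938) and Rhox10 (0.917), nearest to Postn, had group means of at most 25.6 and 25.3 normalized counts. Zyx encodes zyxin of focal adhesions, Nid1 the basement membrane protein nidogen-1, and Efemp1 a fibulin.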

How the data were processed

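RNA of 54 samples was sequenced by the authors as paired polyadenylated libraries, aligned with HISAT2 to mm10 and compared with DESeq2, per the labels. The 27 deposited tables give for each gene 2 group levels, treated here as a signal, beside the authors' own fold changes and p-values. The level columns are not plain group means: their average over a table is the mean of count over size factor in its 6 libraries, and the split between the 2 groups follows the authors' fold change, so only that average was used. Whole counts of all 54 libraries were solved from these averages for 19641 of 19653 genes, and all 472204 table means were returned within a relative difference of 1e-13. The authors' fold changes and p-values were not used as results. Strand-specific counting is not given in the sources used here.

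Counts were divided by median-of-ratios size factors (over the 6 libraries of a comparison for tests, over all 54 for printed levels). Genes with a mean of at least 10 in the higher group were tested with limma-trend on log2(normalized count + 1) (limma 3.58.1, R 4.3.3), with Benjamini-Hochberg adjustment over all genes kept, and called at an adjusted p below 0.05 and at least 2-fold. Fold changes are on that scale. Steps were compared with wildtype in fits of 12 libraries, called at an adjusted p below 0.05. SE is the moderated standard error. Recovery and tests were checked on simulated data. The libraries simulated for the tests were independent, so that check does not cover groups in which 2 libraries were alike. Of 17850 gene numbers, 17820 matched a symbol. Levels per kilobase use the transcript length in the tables.

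The 9 genes and the lists were chosen with earlier results of these data known. Named were the 9 genes, the direct receptors of a member, list genes called in at least 10 of 15 comparisons with wildtype or at both wildtype steps, and the 2 genes nearest to each member by r. Alternatives were scaling by total counts, a pseudocount of 5, no filter, voom weights, 1 fit over 18 groups, no fold limit, each library left out, and, chosen after seeing the data, the closest pair of each group averaged. Cells with the vector alone and the M179 mutant were not analysed here.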

Additional observations from a re-analysis of the deposited data

Results flagged for a closer look

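In 18 of 80 tests (22.5%) the change of a gene between consecutive days differed between a line and wildtype, by a test of the difference itself in limma. That share was close to the 22.9% of all genes over the same 10 contrasts. Values are log2 differences, the step of the line minus the step of wildtype. The contrasts of a step share the wildtype libraries of that step. With the closest pair of each group averaged, 3 of the 18 were found again, beside 3.99% of tests over all genes. These were Postn in Δ95–99 and Q133H and Thbs2 in Δ95–99.

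From day 0 to 1 the step of Postn was lower than in wildtype by a difference of -3.00 in +EMD, -3.84 in Δ95–99 and -3.88 in Q133H. In the same step Fn1 differed by -0.58 in +EMD, Tnc by -1.37 in Δ95–99 and Vwf by -2.97 in Q133H, the last from libraries of 0 to 1.81 normalized counts on day 1.

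From day 1 to 2 every difference found was positive. Both steps use the day 1 libraries of the line and of wildtype, with opposite sign, so the signs of consecutive steps are not independent. Thbs1 differed by 1.64 in +EMD, 1.32 in Δ95–99 and 1.30 in Q133H, and Vwf by 1.39, 1.85 and 2.17 in the same lines. Thbs2 differed by 1.62 in S54F, 2.03 in Δ95–99 and 2.55 in Q133H. Postn differed by 1.53 and Sparc by 0.50 in S54F, and Fn1 by 0.93 in Q133H. With each library left out in turn 9 of the 18 held. The calls that were lost most often were Sparc in S54F (11 of 12 libraries, adjusted p up to 0.11), Postn in S54F and Thbs1 in Δ95–99 (10 of 12 each, up to 0.108 and 0.113).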

How the results depend on the processing

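Of the 78 calls against wildtype or between days, 52 held with each library left out in turn, 56 with the closest pair of each group averaged and 51 under both, and none was reversed under any alternative. Averaging the pair moved the higher calls from 26 to 17 and the differences in step from 18 to 3. The cause was not tested, though this alternative leaves 2 values per group. Leaving out 1 library gave 17 to 20 lower and 22 to 28 higher calls, 11 to 14 rises and 19 to 22 falls. For the differences in step it gave 11 without wildtype library 2 of day 1 and 28 without wildtype library 1 of that day. Under the other 6 alternatives the counts of lower and higher calls, rises, falls and differences in step stayed within 1.5 times the main count. No paired analysis was possible because the columns carry no replicate numbers. Depth limited Vtn, and for Vwf and Reln a few reads set the fold, for Reln in S54F through the wildtype libraries.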
